A study of Homo sapiens with 12 samples.

Results

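The 9 genes described here, NQO1, GCLC, GCLM, TXNRD1, SRXN1, AKR1B10, AKR1C1, AKR1C2 and AKR1C3, are known targets of the transcription factor NRF2 and were taken by name from the gene count table. They were 9 of 58735 gene identifiers, and all 9 were among the 17829 genes with enough counts to be tested. The study asked how GFI1, a zinc-finger transcription factor of early blood formation, alters lung cancer cells that stay on or leave their substrate. RNA-Seq was run on A549, an established human lung adenocarcinoma line, in 4 groups of 3 libraries. The attached control and attached GFI1-expressing cells received no treatment, and the floating control and floating GFI1-expressing cells were held in suspension for 48 h. All 4 groups were grown in RPMI1640 with 10% FBS. GFI1 was delivered by a lentivirus whose vector name gives the human PGK promoter and eGFP, and the GFP+ cells were sorted for RNA-Seq. The labels do not give the vector of the control cells, and they do not say whether the 3 libraries of a group were separate cultures, so the p-values measure only the spread between these libraries.

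NRF2, encoded by NFE2L2, is held at low levels by KEAP1, which presents it to a CUL3 ubiquitin ligase for degradation. When oxidants or electrophiles modify KEAP1, NRF2 accumulates, pairs with a small MAF protein and binds antioxidant response elements near genes for detoxification, glutathione and thioredoxin, while BACH1 competes for the same elements. A549 cells carry a loss-of-function mutation of KEAP1 and are known for constant activity of this pathway.

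The libraries held 17014188 to 20748677 counts, with 26273 to 28042 genes detected and 6.15% to 7.11% of counts from mitochondrial genes. GFI1 had 4 to 12 counts in the 6 control libraries and 5154 to 12796 counts in the 6 GFI1 libraries, so GFI1 counts went with the control and GFI1 labels in all of them. By the counts of keratin genes the cells were epithelial, with 8281 to 107552 counts of each of KRT8 and KRT18 in a library, whereas the alveolar type II markers SFTPB and SFTPC did not pass 14 counts and NKX2-1 did not pass 36. The 6 epithelial markers, summed, moved with the groups. They came to 10386 to 10986 CPM (counts of a gene relative to all counts of its library, scaled for library composition) in attached control, 4222 to 4339 in attached GFI1, 6529 to 6938 in floating control and 3039 to 3411 in floating GFI1 libraries. Of these 6, CDH1 had 1376 to 2186 counts in control and 66 to 142 in GFI1 libraries, and EPCAM and KRT19 stayed at or below 4.43 CPM. The blood cell markers CD3E and PTPRC had 0 or 1 count and SPI1 had up to 7. Of the fibroblast markers, DCN was at 0, LUM had up to 3 counts, and PDGFRB had 1 to 5 in control and 35 to 66 in GFI1 libraries. The part of these markers in the results was not tested, and in bulk RNA fewer cells with a transcript and less of it per cell cannot be told apart. Floating GFI1 replicates 2 and 3 were the replicate pair that differed most, with a chi-square per gene of 10.5 against 1.93 to 4.54 for the other pairs.

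Together the 9 genes took 1.13% to 1.49% of the counts of a library. AKR1C2 was the 11th most abundant of the 17829 tested genes by mean CPM, NQO1 the 33rd and AKR1B10 the 34th, while SRXN1 was the 4631st. Per kilobase of the gene length in the table, the mean level over the 12 libraries was 1115 CPM per kb for AKR1B10, 649 for AKR1C2, 608 for NQO1, 357 for AKR1C3, 202 for TXNRD1, 139 for AKR1C1, 30.6 for GCLM, 28.5 for GCLC and 17.9 for SRXN1. Over the 12 libraries, 5 pairs of neighbours in this order overlapped. They were AKR1B10 (227 to 2196) and AKR1C2 (526 to 752), AKR1C2 and NQO1 (461 to 822), TXNRD1 (149 to 229) and AKR1C1 (70.7 to 204), GCLM (24.4 to 35.2) and GCLC (23.7 to 34.3), and GCLC and SRXN1 (11.6 to 26.8). In floating GFI1 cells, AKR1C1 stood above TXNRD1 and GCLC above GCLM by their means. AKR1B10 ranked 1st in both control groups and 4th in both GFI1 groups. The order also depends on the length used. With the length of 1 reference transcript a gene, an alternative chosen after seeing the data, AKR1C3 (1365) came first and AKR1B10 (1201) fell to the 3rd place.

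The 3 AKR1C genes lie side by side on chromosome 10 of hg38, with AKR1C1 at 4963253 to 4983283 and AKR1C3 at 5035354 to 5107686 on the plus strand, and AKR1C2 between them at 4987400 to 5018031 on the minus strand. Their coding sequences are so alike that short reads can be assigned to the wrong gene. Over 969 coding bases, AKR1C1 and AKR1C2 differ at 19 bases (98.0% identity), and AKR1C3 shares 91.4% of its bases with AKR1C1 and 91.0% with AKR1C2. Of all windows of 100 bases, 12.4% of those in the AKR1C1 transcript and 25.6% of those in the AKR1C2 transcript also occur in the other gene. Coding bases 88 to 162, in the second coding exon of each gene, are shown because they hold 10 of the 19 differences between AKR1C1 and AKR1C2. The capitals mark the 17 positions at which the 3 genes are not all the same, read from GENCODE v44 transcripts on hg38 at chr10:4965917-4965991 (plus strand), chr10:5001604-5001678 (minus strand) and chr10:5096413-5096487 (plus strand).
AKR1C1: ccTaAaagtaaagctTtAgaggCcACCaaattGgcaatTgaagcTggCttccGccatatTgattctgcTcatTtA
AKR1C2: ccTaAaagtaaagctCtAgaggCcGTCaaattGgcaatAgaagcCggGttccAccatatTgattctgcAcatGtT
AKR1C3: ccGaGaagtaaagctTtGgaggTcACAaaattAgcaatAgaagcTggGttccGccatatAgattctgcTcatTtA

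The antioxidant response element is read here by its core letters, TGACNNNGC, searched on both strands in the 1000 bases before the reference transcript start. These letters occurred before 5 of the 9 genes and before 32.6% of 19061 protein-coding genes. The stricter form TGACTCAGC, which has the same length and fixes the free letters of the core, occurred before 1 of the 9 (NQO1) and before 1.32% of all genes. The 5 matches are given with 11 bases on either side and the match in capitals, as a record of the letters and not of binding, at chr16:69726996-69727026 (minus strand), chr6:53545952-53545982, chr1:93909445-93909475, chr12:104215669-104215699 and chr7:134526698-134526728 (plus strand) of hg38. The matches start 455 bases before the transcript start for NQO1, 870 for GCLC, 34 for GCLM, 99 for TXNRD1 and 858 for AKR1B10.
NQO1: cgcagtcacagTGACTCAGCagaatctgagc
GCLC: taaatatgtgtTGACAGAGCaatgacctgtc
GCLM: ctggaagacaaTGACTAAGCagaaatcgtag
TXNRD1: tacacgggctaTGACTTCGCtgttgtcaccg
AKR1B10: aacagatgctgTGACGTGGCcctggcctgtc

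**Figure D1:**
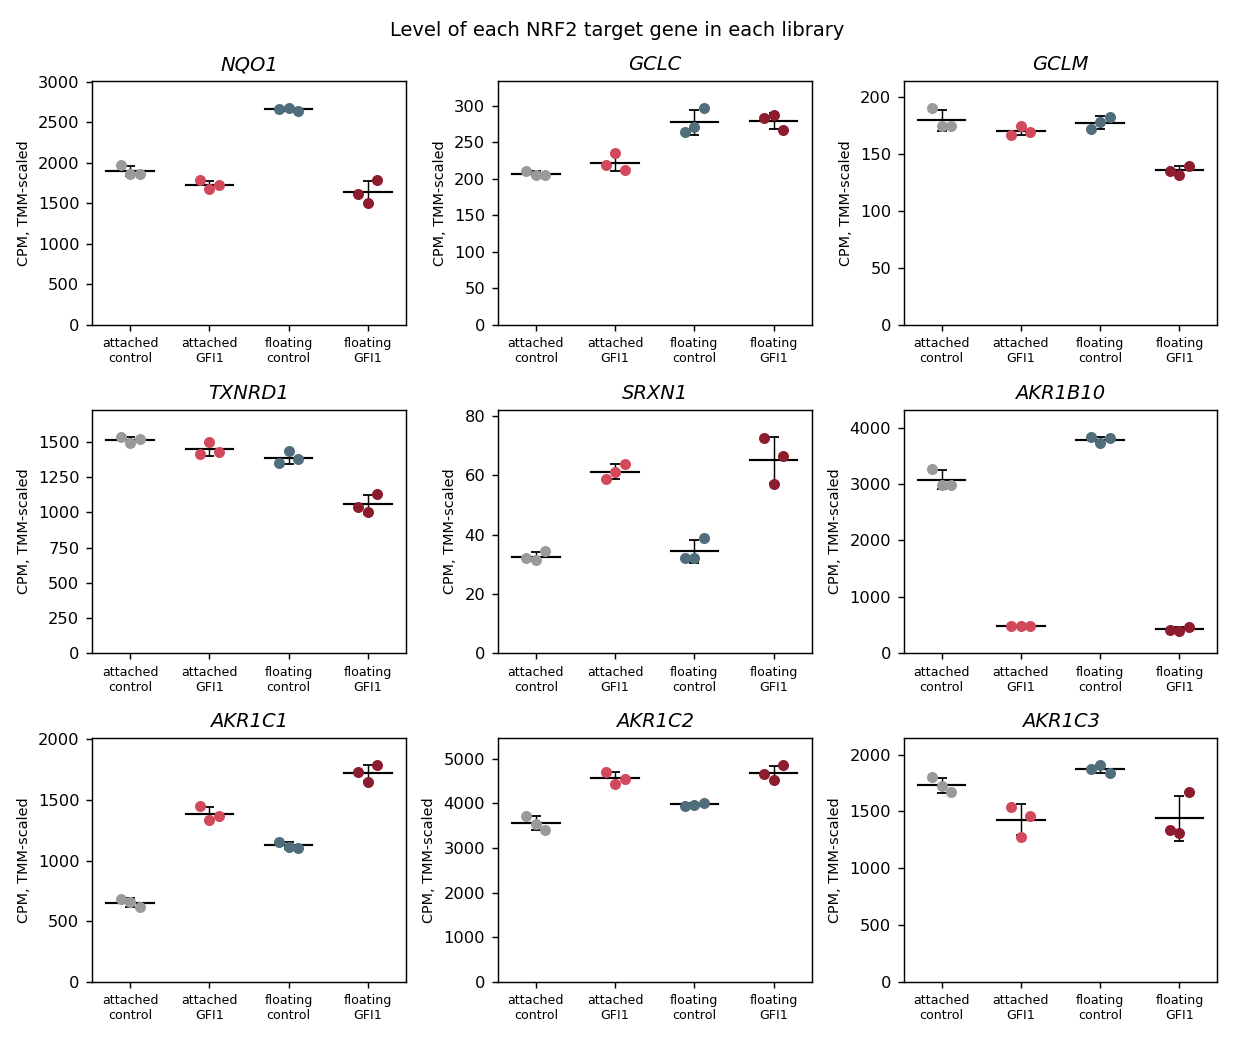
CPM of each of the 9 genes (vertical axes from 0, scaled by TMM) in the 4 groups on the horizontal axis. Points are libraries, horizontal lines are group means and bars are 1 SD (n = 3); the 6 GFI1 libraries of AKR1B10 sit between 396 and 485 CPM, and the 6 control libraries at 2982 CPM or more.

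With GFI1, the 9 genes did not move as a block. In attached cells, 3 of the 9 were higher (AKR1C1, SRXN1 and AKR1C2), 3 were lower (AKR1B10, AKR1C3 and NQO1) and 3 did not pass the test, by edgeR's quasi-likelihood test at a Benjamini-Hochberg adjusted p of 0.05. Among all tested genes, 29.5% were higher and 32.8% lower in the same comparison. In floating cells, 3 were higher, 5 were lower (AKR1B10, NQO1, TXNRD1, GCLM and AKR1C3) and GCLC did not pass, against 29.3% and 31.1% of all genes. The median log2 fold change of the 9 genes was -0.07 in attached and -0.38 in floating cells, against -0.01 and 0.01 for all tested genes. In attached cells, 3 of 9 in each direction is near the share of all genes. If libraries are scaled by size alone, the median of all genes rises to 0.14 in both GFI1 comparisons, 61.5% of the calls in attached cells and 61.4% in floating cells are higher rather than 47.4% and 48.5%, the 9 genes divide into 4 higher and 1 lower in attached cells, and NQO1, GCLM and TXNRD1 change sign there to 0.01, 0.07 and 0.08.

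AKR1B10, an aldo-keto reductase that reduces retinal and lipid aldehydes, showed the widest difference of the 9. The gene lies on chromosome 7 at 134527592 to 134541408 (plus strand). In attached control cells it was at 3273, 2982 and 2988 CPM, and in attached GFI1-expressing cells at 479, 485 and 480 CPM. In floating control cells it was at 3830, 3731 and 3810 CPM, and in floating GFI1-expressing cells at 408, 396 and 470 CPM. The control and GFI1 libraries were far apart in both states. By edgeR, AKR1B10 was 6.40-fold lower with GFI1 in attached cells (log2 fold change -2.68 ± 0.05 SE, adjusted p = 3.32e-23) and 8.92-fold lower in floating cells (-3.16 ± 0.06, adjusted p = 1.90e-24). Suspension raised it in control cells by 0.30 ± 0.05 (adjusted p = 3.49e-05) and lowered it in GFI1-expressing cells (-0.18 ± 0.05, adjusted p = 0.00986). These opposite responses differed from each other by -0.48 ± 0.07 (adjusted p = 5.85e-05 for the interaction). All of its 85 alternative values kept their sign and their side of the threshold.

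AKR1B15 is the nearest relative of AKR1B10. Its coding sequence has 1032 bases and that of AKR1B10 has 948, and 70 of the aligned bases differ. Identical bases were 85.1% of the longer sequence, and 1.12% of the windows of 100 bases in the AKR1B10 transcript were shared. AKR1B15 had at most 657 counts in a library, and whether some came from AKR1B10 reads was not tested. It was also lower with GFI1, at -1.89 ± 0.10 in attached cells (edgeR adjusted p = 5.06e-15) and -2.09 ± 0.09 in the floating state (adjusted p = 2.01e-16). It was the member of the relatives list with the lowest p in that direction in both comparisons. For each AKR1B15 count there were 120 ± 3.52 AKR1B10 counts in attached control, 69.5 ± 2.38 in attached GFI1, 104 ± 10.3 in floating control and 49.9 ± 2.72 in floating GFI1 libraries (mean ± SD, n = 3 each). The ratio did not overlap between control and GFI1 libraries. The better known AKR1B1, which converts glucose to sorbitol, was lower with GFI1 as well. Its log2 fold changes were -0.82 ± 0.05 (attached) and -0.73 ± 0.05 (floating), and edgeR called both. AKR1B1 was also lower after suspension, at -0.52 ± 0.05 in control cells (edgeR adjusted p = 3.16e-09). The suspension value in GFI1-expressing cells was -0.43 ± 0.05 (adjusted p = 1.45e-07).

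AKR1C1, a reductase that inactivates progesterone, rose with GFI1 and with suspension. It was at 687, 655 and 620 CPM in attached control, 1448, 1338 and 1371 in attached GFI1, 1157, 1115 and 1103 in floating control and 1728, 1652 and 1785 in floating GFI1 libraries. No 2 of the 4 groups overlapped. GFI1 raised AKR1C1 2.12-fold in attached cells (1.08 ± 0.05, edgeR adjusted p = 1.41e-16) and 1.53-fold in the floating state (0.61 ± 0.05, adjusted p = 1.18e-11). Suspension raised it 1.72-fold in control (0.78 ± 0.05, adjusted p = 8.02e-13) and 1.24-fold in GFI1-expressing cells (0.31 ± 0.05, adjusted p = 6.20e-06). The GFI1 effect was smaller in floating than in attached cells (interaction -0.47 ± 0.06, adjusted p = 1.49e-05).

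AKR1C2, which inactivates dihydrotestosterone, was the most abundant of the 9 by CPM and moved less. Its libraries were at 3711, 3544 and 3401 CPM in attached control, 4711, 4431 and 4546 in attached GFI1, 3936, 3974 and 4020 in floating control and 4648, 4534 and 4860 in floating GFI1 cells. The control and GFI1 libraries did not overlap in either state, while the attached and floating GFI1 libraries did. GFI1 raised it by 0.36 ± 0.04 in attached (edgeR adjusted p = 5.42e-08) and 0.24 ± 0.04 in the floating state (adjusted p = 3.41e-05). Suspension raised it by 0.16 ± 0.04 in control cells (adjusted p = 0.00314), and the value in GFI1-expressing cells was 0.04 ± 0.04 (adjusted p = 0.567). The interaction was -0.13 ± 0.06 (adjusted p = 0.211).

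AKR1C3, a 17-ketosteroid reductase and prostaglandin F synthase, was lower with GFI1, unlike its neighbours. It was at 1801, 1723 and 1670 CPM in attached control, 1543, 1277 and 1464 in attached GFI1, 1872, 1909 and 1840 in floating control and 1341, 1312 and 1669 in floating GFI1 libraries. The GFI1 libraries spread more widely than the controls, and floating GFI1 replicate 3 stood beside the lowest attached control library. By edgeR, the log2 fold change with GFI1 was -0.28 ± 0.07 in attached (adjusted p = 0.00106) and -0.38 ± 0.07 in the floating state (adjusted p = 3.56e-05). The attached call was lost with scaling by library size alone (-0.13, adjusted p = 0.0982). After suspension, AKR1C3 changed by 0.11 ± 0.07 in control (adjusted p = 0.199) and 0.01 ± 0.07 in GFI1-expressing cells (adjusted p = 0.914), and neither passed. The control value passed when only the groups compared were fitted (0.12, edgeR adjusted p = 0.0107). Without floating GFI1 replicate 3 the interaction, -0.10 ± 0.10 with all libraries (adjusted p = 0.596), became -0.22 (adjusted p = 0.0434).

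Since reads may be exchanged among the 3 AKR1C genes, their counts were also added. As 1 feature they rose with GFI1 by 0.31 ± 0.05 in attached (edgeR adjusted p = 1.61e-06) and by 0.17 ± 0.05 in the floating state (adjusted p = 0.00239), and with suspension by 0.23 ± 0.05 in control cells (adjusted p = 0.000186). In GFI1-expressing cells the sum changed by 0.09 ± 0.05 (adjusted p = 0.150), which did not pass. Within the sum the mix shifted. For each AKR1C2 count there were 0.184 ± 0.00158 AKR1C1 counts in attached control, 0.304 ± 0.00333 in attached GFI1, 0.283 ± 0.00993 in floating control and 0.368 ± 0.00376 in floating GFI1 libraries (mean ± SD, n = 3 each), with no overlap between groups. AKR1C4, the liver member of the cluster, was at 1.98 to 6.06 CPM in all libraries and was higher with GFI1 by 1.07 ± 0.17 in attached (adjusted p = 5.90e-06) and 0.96 ± 0.18 in the floating state (adjusted p = 5.83e-05).

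**Figure D2:**
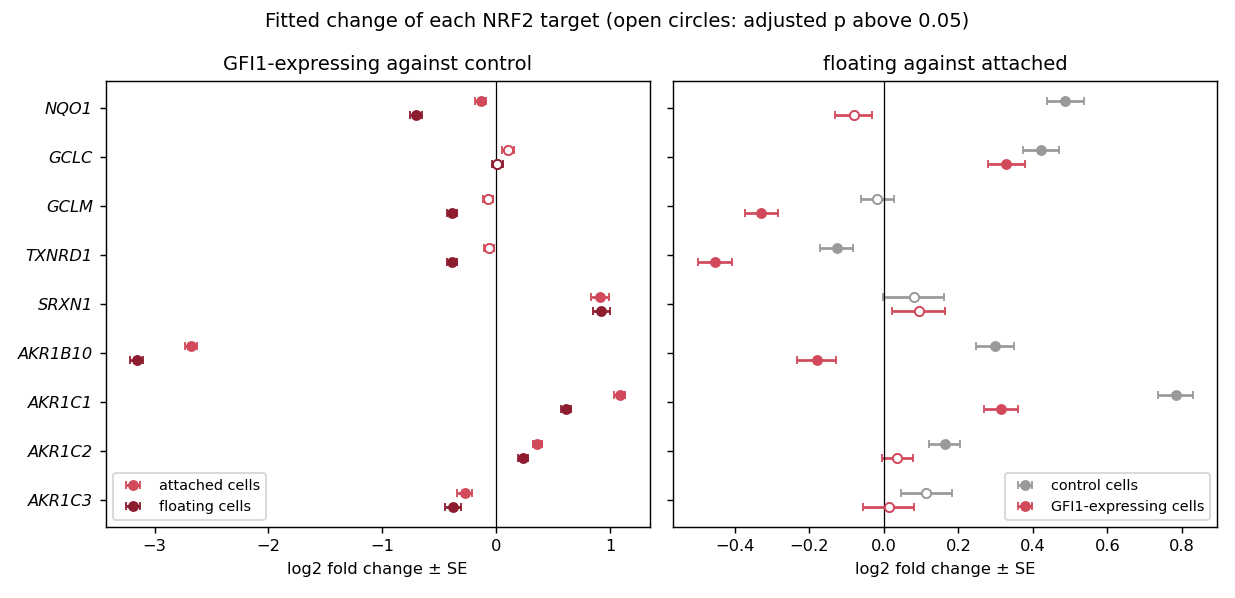
Fitted log2 fold changes (horizontal axes, ± SE) of the 9 genes for GFI1 against control (left) and floating against attached (right). Filled circles passed an adjusted p of 0.05; on the left AKR1B10 lies at -2.68 and -3.16 while AKR1C1 lies at 1.08 and 0.61.

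NQO1, the quinone reductase that is the usual readout of NRF2 activity, rose with suspension in control cells, and in GFI1-expressing cells it did not pass the test. The gene lies on chromosome 16 at 69706996 to 69726951 (minus strand). It was at 1968, 1865 and 1859 CPM in attached control, 1781, 1679 and 1721 in attached GFI1, 2660, 2674 and 2645 in floating control and 1609, 1499 and 1791 in floating GFI1 libraries. The floating control libraries stood above all others, and the 2 GFI1 groups overlapped. By edgeR, suspension raised NQO1 1.40-fold in control cells (0.49 ± 0.05, adjusted p = 1.58e-08), and the value in GFI1-expressing cells was -0.08 ± 0.05 (adjusted p = 0.241), a difference of -0.57 ± 0.07 (interaction, adjusted p = 3.67e-06). Without floating GFI1 replicate 3, the value in GFI1-expressing cells was -0.15 and passed (adjusted p = 0.00736). GFI1 lowered NQO1 1.63-fold in the floating state (-0.70 ± 0.05, adjusted p = 4.91e-12). In attached cells the change was -0.14 ± 0.05 (adjusted p = 0.0208). That call was lost with upper quartile scaling (-0.08), with at least 10 counts in every library (-0.11) and without attached control replicate 1 (-0.11), attached GFI1 replicate 2 (-0.12) or attached GFI1 replicate 3 (-0.13).

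GCLC and GCLM, the catalytic and modifier subunits of glutamate-cysteine ligase, the first enzyme of glutathione synthesis, took different courses. GCLC lies on chromosome 6 at 53497341 to 53616970 and GCLM on chromosome 1 at 93885205 to 93909456, both on the minus strand. GCLC was at 210.5, 205 and 205 CPM in attached control, 219, 235 and 212 in attached GFI1, 264, 270.2 and 296 in floating control and 283, 287 and 266 in floating GFI1 libraries. Every floating library was above every attached one. Suspension raised GCLC by 0.42 ± 0.05 in control (edgeR adjusted p = 1.20e-07) and by 0.33 ± 0.05 in GFI1-expressing cells (adjusted p = 7.62e-06), with an interaction of -0.09 ± 0.07 (adjusted p = 0.463). The GFI1 effect on GCLC was 0.10 ± 0.05 in attached (adjusted p = 0.0694) and 0.01 ± 0.05 in the floating state (adjusted p = 0.867). The attached value passed under 7 alternatives, from 0.10 with robust empirical Bayes to 0.25 with library size alone, and with library size alone the floating value also passed (0.14, edgeR adjusted p = 0.0160). A lncRNA on the same strand (ENSG00000231683, up to 1018 counts in a library) overlaps the GCLC gene bounds, and how reads in such overlaps were counted is not given in the sources used here.

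GCLM was at 191, 175 and 175 CPM in attached control, 167, 175 and 170 in attached GFI1, 172, 178 and 183 in floating control and 136, 132 and 140 in floating GFI1 libraries. The floating GFI1 libraries were below all the others, which overlapped. Suspension changed GCLM by -0.02 ± 0.04 in control cells (edgeR adjusted p = 0.799) and lowered it in GFI1-expressing cells (-0.33 ± 0.04, adjusted p = 2.41e-06), a difference of -0.31 ± 0.06 (interaction, adjusted p = 0.00136). With GFI1, GCLM was at -0.08 ± 0.04 in attached (adjusted p = 0.138) and fell 1.31-fold in the floating state (-0.39 ± 0.04, adjusted p = 3.99e-08). The number of GCLC counts for each GCLM count was 1.15 ± 0.0390 in attached control, 1.30 ± 0.0474 in attached GFI1, 1.56 ± 0.0541 in floating control and 2.06 ± 0.139 in floating GFI1 libraries (mean ± SD, n = 3 each). This ratio did not overlap between any of the 4 groups.

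TXNRD1, the cytosolic thioredoxin reductase, lies on chromosome 12 at 104215779 to 104350305 (plus strand). It was at 1537, 1490 and 1518 CPM in attached control, 1414, 1499 and 1431 in attached GFI1, 1348, 1438 and 1377 in floating control and 1039.5, 1001 and 1134 in floating GFI1 libraries. As for GCLM, the floating GFI1 libraries lay below the other 3 groups. GFI1 lowered TXNRD1 1.31-fold in the floating state (-0.39 ± 0.05, edgeR adjusted p = 4.86e-08), while the attached value was -0.07 ± 0.05 (adjusted p = 0.219). Suspension lowered it in GFI1-expressing cells (-0.45 ± 0.05, adjusted p = 2.43e-08) and less in control cells (-0.13 ± 0.05, adjusted p = 0.0284), and the difference was -0.33 ± 0.06 (interaction, adjusted p = 0.00112). The call in control cells was lost under upper quartile scaling and library size alone (both -0.11) and when attached control replicate 1 or 3 or floating control replicate 1 or 3 was left out (-0.11 to -0.13).

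SRXN1 encodes sulfiredoxin, which repairs overoxidized peroxiredoxins, and lies on chromosome 20 at 646615 to 653370 (minus strand). It was at 32.0, 31.3 and 34.3 CPM in attached control, 58.7, 61.1 and 63.6 in attached GFI1, 32.2, 32.1 and 38.7 in floating control and 72.4, 57.0 and 66.4 in floating GFI1 libraries. The 6 GFI1 libraries were above the 6 control libraries, and attached and floating libraries overlapped. GFI1 raised SRXN1 1.88-fold in attached (0.91 ± 0.08, edgeR adjusted p = 1.19e-10) and 1.90-fold in the floating state (0.92 ± 0.08, adjusted p = 8.54e-11), and the interaction was 0.01 ± 0.11 (adjusted p = 0.967). The values for suspension were 0.08 ± 0.08 in control (adjusted p = 0.474) and 0.09 ± 0.07 in GFI1-expressing cells (adjusted p = 0.353). PRDX1, a peroxiredoxin that sulfiredoxin repairs, was lower with GFI1 in attached (-0.80 ± 0.04, adjusted p = 1.49e-14) and floating cells (-1.10 ± 0.04, adjusted p = 2.41e-17). It was also lower after suspension in GFI1-expressing cells (-0.34 ± 0.04, adjusted p = 7.75e-07), while the value in control cells was -0.04 ± 0.04 (adjusted p = 0.457).

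After suspension, 5 of the 9 genes were higher in control cells (AKR1C1, NQO1, GCLC, AKR1B10 and AKR1C2), 1 was lower (TXNRD1) and 3 did not pass, against 19.6% of all tested genes higher and 20.5% lower by edgeR. With library size alone the division was 5 higher and 0 lower. In GFI1-expressing cells 2 were higher (GCLC and AKR1C1), 3 were lower (TXNRD1, GCLM and AKR1B10) and 4 did not pass, against 15.0% higher and 16.3% lower of all genes. The median log2 fold change of the 9 was 0.16 in control and 0.01 in GFI1-expressing cells, and that of all genes was 0.01 and 0.00175. The interaction, which compares the GFI1 effect in floating with that in attached cells, was lower for 5 of the 9 (NQO1, AKR1B10, AKR1C1, TXNRD1 and GCLM) and higher for 0, where 6.01% of all genes were lower and 4.76% higher. For each of these 5, the fitted interaction was negative without any single library (-0.64 to -0.28). The GFI1 and suspension comparisons share libraries, so their values for a gene are not independent of each other.

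**Figure D3:**
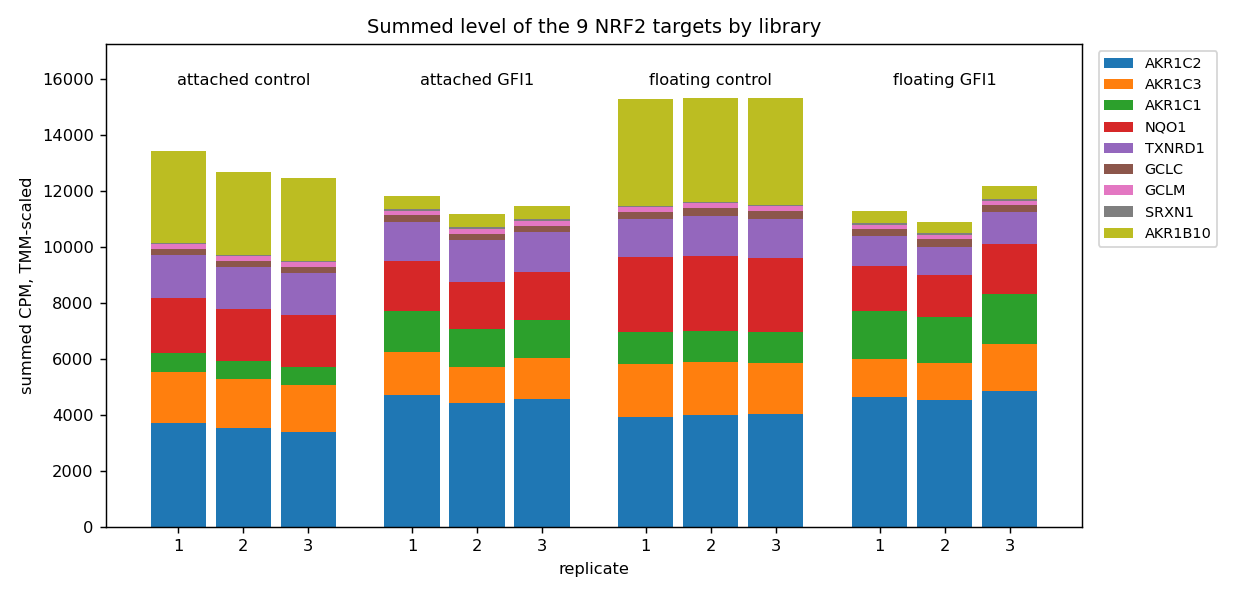
Summed CPM of the 9 genes (vertical axis from 0) in each of the 12 libraries by replicate, stacked by gene. The AKR1B10 segment is 23.5% to 25.1% of the sum in control libraries and 3.62% to 4.33% in GFI1 libraries.

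The summed level of the 9 genes was 12849.5 ± 495 CPM in attached control, 11486 ± 322 in attached GFI1, 15302 ± 28.0 in floating control and 11440 ± 673 in floating GFI1 libraries (mean ± SD, n = 3 each). The floating control libraries were the highest, and the GFI1 groups overlapped. The 3 AKR1C genes alone came to 5937 ± 254, 7376 ± 328, 6975 ± 19.9 and 7843 ± 422 CPM in that order of groups. The other 6 came to 6913 ± 259, 4110 ± 29.3, 8327 ± 23.1 and 3596 ± 251 CPM. These 6 include AKR1B10, with means of 3081, 481, 3790 and 425 CPM in the same order. GCLC and SRXN1, also among them, did not have lower means with GFI1. AKR1B10 made up 24.0% of the sum of the 9 genes in attached control and 4.19% in attached GFI1 libraries, and AKR1C2 made up 27.6% and 39.7%. For each AKR1B10 count there were 1.15 ± 0.0303 AKR1C2 counts in attached control and 1.05 ± 0.0193 in floating control, against 9.48 ± 0.349 in attached GFI1 and 11.1 ± 0.622 in floating GFI1 libraries. Scaled by library size alone, the sums of the 9 genes overlapped between attached control (11876 to 12581 CPM) and attached GFI1 libraries (11674 to 12333 CPM).

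The genes that control the pathway were mostly higher with GFI1 at the RNA level. Of 14 regulators, GFI1 raised 8 and lowered 0 in attached cells by edgeR, and raised 12 and lowered 1 in floating cells (median log2 fold change 0.34 and 0.31). The shares of all tested genes were 29.5% higher and 32.8% lower in attached and 29.3% and 31.1% in floating cells. With library size alone the regulators' counts were 12 and 0 in both, a scaling under which 61.5% and 61.4% of all calls were higher. NFE2L2, which encodes NRF2 itself, was at 66.7 ± 2.13 CPM in attached control, 102 ± 2.09 in attached GFI1, 80.4 ± 3.14 in floating control and 99.9 ± 2.41 in floating GFI1 libraries (mean ± SD, n = 3 each). It rose with GFI1 by 0.62 ± 0.05 in attached (adjusted p = 7.71e-12) and 0.31 ± 0.04 in the floating state (adjusted p = 1.20e-06), and with suspension by 0.27 ± 0.05 in control cells (adjusted p = 3.60e-05). The suspension value in GFI1-expressing cells was -0.04 ± 0.04 (adjusted p = 0.590). Its repressor KEAP1 rose with GFI1 as well, by 0.39 ± 0.04 (adjusted p = 7.24e-09) and 0.19 ± 0.04 (adjusted p = 0.000343).

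BACH1, which represses genes with antioxidant response elements, was at 20.6 ± 2.51 CPM in attached control, 58.8 ± 2.20 in attached GFI1, 48.3 ± 2.71 in floating control and 73.8 ± 4.91 in floating GFI1 libraries (mean ± SD, n = 3 each). By edgeR, it rose with GFI1 by 1.52 ± 0.07 in attached (adjusted p = 1.42e-15) and 0.61 ± 0.06 in the floating state (adjusted p = 7.90e-09), and with suspension by 1.23 ± 0.07 in control cells (adjusted p = 1.29e-12). The interaction was -0.90 ± 0.10 (adjusted p = 4.50e-07). MAFK, a small MAF partner shared by NRF2 and BACH1, rose with GFI1 in floating cells by 2.09 ± 0.10 (adjusted p = 1.22e-15). Its interaction of 0.76 ± 0.14 (adjusted p = 0.000357) did not pass with robust empirical Bayes. MAFF, another small MAF, rose with suspension by 0.76 ± 0.16 in control (adjusted p = 0.000321) and 1.40 ± 0.15 in GFI1-expressing cells (adjusted p = 6.38e-08). The MAFF interaction of 0.64 ± 0.22 did not pass (adjusted p = 0.0609). RBX1, the RING subunit of the CUL3 ligase, was the regulator that fell in floating cells (-0.21 ± 0.07, adjusted p = 0.0116), a call that was lost with library size alone (-0.08) and without floating GFI1 replicate 1 (-0.15). NFE2L3, a relative of NRF2, fell with suspension in control (-0.48 ± 0.08, adjusted p = 2.07e-05) and GFI1-expressing cells (-0.32 ± 0.07, adjusted p = 0.00173). Over the 14 regulators, 6 were higher and 3 lower with suspension in control cells, and 5 were higher and 2 lower in GFI1-expressing cells. The shares of all genes were 19.6% and 20.5% in control and 15.0% and 16.3% in GFI1-expressing cells, so the counts of lower regulators lay near them.

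Of 32 other NRF2 target genes, 11 were higher and 16 lower with GFI1 in attached cells, and in floating cells 7 rose and 20 fell (edgeR, medians -0.12 and -0.29). Against 29.5% of all genes higher and 32.8% lower in attached and 29.3% and 31.1% in floating cells, the counts of higher targets lay near the background. With library size alone these counts became 14 and 12, and 12 and 17. The gene with the lowest p among those higher was NR0B1, an orphan nuclear receptor induced in KEAP1-mutant lung cancer, at 1.80 ± 0.05 in attached (adjusted p = 8.59e-20) and 1.61 ± 0.05 in the floating state (adjusted p = 6.94e-19). Among those lower it was GPX2, a glutathione peroxidase, at -2.13 ± 0.08 (adjusted p = 6.51e-18) and -2.31 ± 0.07 (adjusted p = 3.28e-19). HMOX1, heme oxygenase and a gene tightly repressed by BACH1, fell with GFI1 in attached (-1.13 ± 0.06, adjusted p = 4.27e-14) and floating cells (-1.64 ± 0.07, adjusted p = 5.32e-17). Its suspension value was -0.02 ± 0.06 in control (edgeR adjusted p = 0.846) and -0.53 ± 0.07 in GFI1-expressing cells (adjusted p = 1.78e-06). BACH1 rose with suspension by 1.23 and 0.33 in the same comparisons, and its part in the HMOX1 values was not tested. SLC7A11, the cystine importer that feeds glutathione synthesis, fell with GFI1 in attached (-0.18 ± 0.04, adjusted p = 0.00100) and floating cells (-0.41 ± 0.04, adjusted p = 1.66e-08). The attached call was lost with library size alone (-0.03). With suspension, 13 were higher and 3 lower in control cells, and 9 were higher and 10 lower in GFI1-expressing cells, beside 19.6% and 20.5% of all genes in control and 15.0% and 16.3% in GFI1-expressing cells.

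ALDH3A1, an aldehyde dehydrogenase on the same list, was at 2583 ± 31.9 CPM in attached control, 4955 ± 123 in attached GFI1, 5017 ± 87.7 in floating control and 5317 ± 279 in floating GFI1 libraries (mean ± SD, n = 3 each). By edgeR it rose with suspension in control cells by 0.96 ± 0.04 (adjusted p = 3.90e-15), with an interaction of -0.86 ± 0.06 (adjusted p = 3.96e-10). Over the 32 genes the interaction was lower for 11 and higher for 1, where 6.01% of all genes were lower and 4.76% higher. The 1 higher was TRIM16 (0.23 ± 0.08, adjusted p = 0.0484), whose call was lost with DESeq2, with RLE size factors, with library size alone and without any single library but attached GFI1 replicate 1 or floating GFI1 replicate 2 (0.15 to 0.26). GPX2 rose with suspension in control cells by 1.07 ± 0.07 (adjusted p = 4.24e-12) and in GFI1-expressing cells by 0.90 ± 0.08 (adjusted p = 4.25e-09), a direction opposite to its GFI1 effect. Its interaction of -0.18 ± 0.11 did not pass (adjusted p = 0.351). TRIM16 also fell with suspension in control cells (-0.24 ± 0.05, adjusted p = 0.000749).

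**Figure D4:**
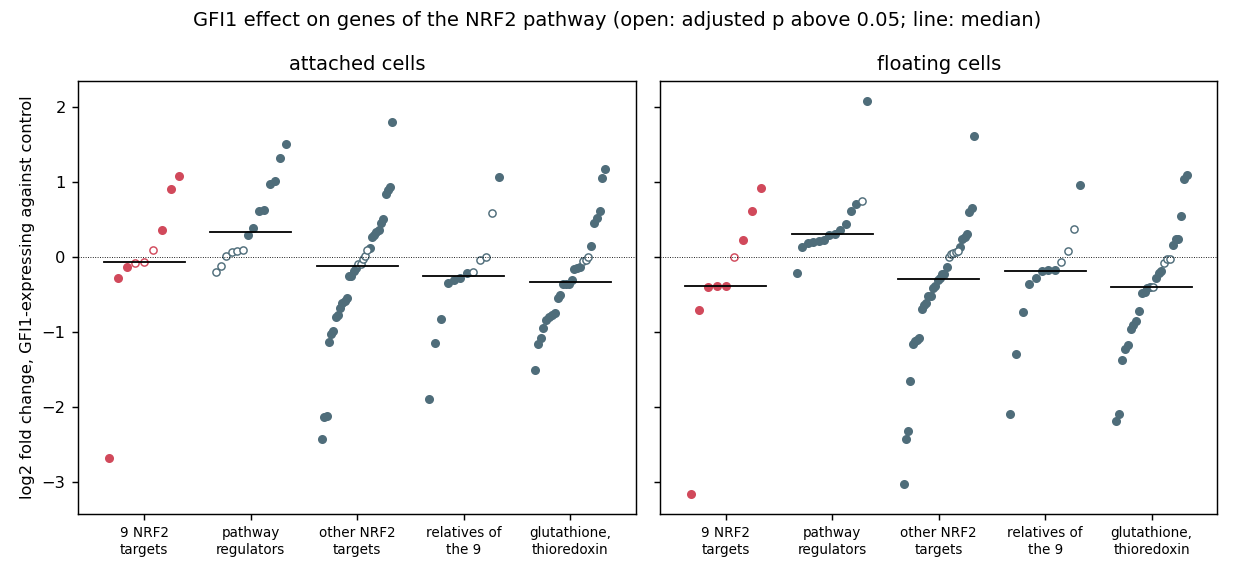
Log2 fold change of GFI1-expressing against control cells (vertical axis) for each gene of the 5 lists, in attached (left) and floating cells (right). Filled points passed an adjusted p of 0.05 and the horizontal line is the list median, which for the 14 regulators is 0.34 and 0.31 and for the other NRF2 targets -0.12 and -0.29.

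Among 26 tested genes of a list of 30 glutathione and thioredoxin genes outside the 9, 6 were higher and 17 lower with GFI1 in attached cells, and in floating cells 6 rose and 16 fell (edgeR, medians -0.33 and -0.40). Of all genes, 29.5% were higher and 32.8% lower in attached and 29.3% and 31.1% in floating cells, near the counts of higher genes on the list. With library size alone the list had 7 higher and 14 lower, and 6 higher and 14 lower. The remaining 4, GPX7, GSTM1, GSTA1 and PRDX2, had too few counts to be tested. MGST1, a microsomal glutathione transferase, fell in attached cells (-1.07 ± 0.05, adjusted p = 2.31e-15), and GGT1, which breaks down extracellular glutathione, rose by 0.52 ± 0.05 (adjusted p = 5.31e-10). In floating control and floating GFI1 libraries, the means were 530 and 205 CPM for MGST1 and 169 and 190 CPM for GGT1. GLRX, the glutaredoxin that removes glutathione from protein thiols, was at 56.8 ± 0.464, 25.6 ± 2.67, 117 ± 3.17 and 25.8 ± 1.17 CPM in attached control, attached GFI1, floating control and floating GFI1 libraries (mean ± SD, n = 3 each). It rose with suspension in control cells by 1.04 ± 0.05 (adjusted p = 7.36e-14) and fell with GFI1 in floating cells (-2.18 ± 0.06, adjusted p = 1.06e-20), with an interaction of -1.03 ± 0.09 (adjusted p = 8.75e-09). The transferase GSTM3 rose with GFI1 in floating cells by 1.10 ± 0.11 (adjusted p = 4.22e-09), and its means were 5.83 CPM in attached control and 12.2 CPM in attached GFI1 libraries. Suspension gave 9 higher and 3 lower in control cells, where 19.6% and 20.5% of all genes were called, with GPX4, the lipid peroxide reductase, at -0.30 ± 0.05 (adjusted p = 5.06e-05) and an interaction of 0.23 ± 0.07 (adjusted p = 0.0419). The latter was lost with DESeq2, RLE size factors and library size alone and without 8 of the 12 libraries in turn (0.20 to 0.23). In GFI1-expressing cells, where 15.0% of all genes were higher and 16.3% lower, suspension gave 1 higher, the transferase GSTM2 at 0.77 ± 0.20 (adjusted p = 0.00479), and 6 lower, among them the transferase GSTP1 at -0.34 ± 0.05 (adjusted p = 2.07e-06).

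Of the 13 relatives of the 9 genes, 12 were tested and AKR1D1 had too few counts. With GFI1, 1 was higher (AKR1C4) and 7 lower in attached cells, and 1 was higher and 8 lower in floating cells (edgeR, medians -0.25 and -0.18), which with library size alone became 2 and 3, and 1 and 3. The shares of all genes were 29.5% and 32.8% in attached and 29.3% and 31.1% in floating cells. With suspension, 2 were higher and 3 lower in control cells (19.6% and 20.5% of all genes), and 1 was higher and 3 lower in GFI1-expressing cells (15.0% and 16.3%). The 1 that was higher in both was AKR1B15, at 0.50 ± 0.08 (adjusted p = 1.19e-05) and 0.31 ± 0.11 (adjusted p = 0.0362). The latter call was lost with DESeq2, with only the groups compared and without attached GFI1 replicate 1, 2 or 3 or floating GFI1 replicate 1 or 3 (0.22 to 0.33).

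To place each of the 9 genes among all tested genes, the gene with the most similar profile was taken by the root mean square difference of log2 CPM over the 12 libraries, each profile centred on its own mean. The values describe likeness over 12 libraries that share 4 groups and their scaling. For AKR1B10 the nearest gene was TPCN1 (0.12), whose log2 fold change with GFI1 was -2.54 in attached and -3.02 in floating cells. The nearest to NQO1 was CRIPT (0.08), to AKR1C2 CPT1A (0.03), to AKR1C1 PCMTD1 (0.09), to AKR1C3 MYDGF (0.07), to SRXN1 KLHL2 (0.09), to GCLC SYF2 (0.06), to GCLM GLA (0.05) and to TXNRD1 RPL26L1 (0.06). Only GCLM and TXNRD1 were near each other (0.07), with 11 genes nearer to GCLM and 5 nearer to TXNRD1. For the other 7, 114 or more genes outside the 9 had a nearer profile than the nearest of the 9 themselves, and for AKR1B10, whose nearest among them was NQO1 (1.25), the number was 3307.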

How the data were processed

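Poly-A RNA from the 12 A549 libraries was sequenced on a NovaSeq system. The deposited table holds raw counts per gene, together with each gene's position and length. The study's methods name FastQC, Hisat2, featureCounts and DESeq2, while the submitters' processing notes name Bowtie2, HTSeq and hg38, and the annotation release and strand setting are not given in the sources used here. The table has 58735 gene identifiers, and its columns belong to the 12 libraries, with 0 left over.

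Counts were fitted in R 4.3.3 with edgeR 4.0.16: filterByExpr (minimum count 10, minimum total 15) kept 17829 genes, TMM scaled the libraries (factors 0.939 to 0.971 in control and 1.04 to 1.06 in GFI1), and 4 group means were fitted by quasi-likelihood. The 5 two-sided contrasts were adjusted by Benjamini-Hochberg over all tested genes and called at an adjusted p of 0.05. The SE of an edgeR log2 fold change is its absolute value divided by the square root of the quasi-likelihood F statistic. CPM are TMM-scaled, and log2 CPM used a prior count of 2. The code was tested on simulated data with 200 changed genes. Alternatives were DESeq2 1.42.0, RLE, upper quartile and library size scaling, other filters, a fit of only the groups compared, robust empirical Bayes, a replicate block, a fold of 2, added AKR1C counts and each library left out. Sequences came from hg38 and GENCODE v44 and were compared with Biopython 1.88.

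The members, gene lists and tests were chosen with earlier results of these data known. The text names the 9 genes, GFI1, NFE2L2, KEAP1, BACH1, HMOX1 and SLC7A11, and from each list and contrast the called gene of lowest adjusted p, higher and lower separately, and for each of the 9 the gene with the nearest profile. At this depth the rarest of the 9, SRXN1, had a mean of 48.3 CPM, and the precision of each value is limited by the spread of 3 libraries.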

Additional observations from a re-analysis of the deposited data

Results flagged for a closer look

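For 5 of the 9 genes, the effect of GFI1 differed between floating and attached cells by edgeR's interaction term at an adjusted p of 0.05. On the log2 scale, the effect in floating cells was below that in attached cells by -0.57 for NQO1, -0.48 for AKR1B10, -0.47 for AKR1C1, -0.33 for TXNRD1 and -0.31 for GCLM. AKR1C1 rose with GFI1 in both states and AKR1B10 fell in both, so for these genes the difference is one of size. For NQO1, GCLM and TXNRD1 the GFI1 effect was called in floating cells, and of the attached effects only that of NQO1 was called. In floating GFI1 replicate 3 GFI1 itself was at 430.2 CPM, against 545 and 706 CPM in replicates 1 and 2. Each of the 5 genes was at its highest of the 3 floating GFI1 libraries there. So were AKR1C2 (4860 CPM) and AKR1C3 (1669 CPM), whose interactions were not called, while GCLC (266 CPM) was at its lowest and SRXN1 in between. The part of the GFI1 level in these values was not tested. The interactions of the 5 genes were as large or larger without that library, from -0.64 (NQO1) to -0.33 (GCLM), and all 5 passed the threshold by edgeR.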

How the results depend on the processing

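Of 750 alternative values for the 9 genes, 708 kept their direction and side of the threshold, 12 lost the threshold, 11 gained it and 19 changed sign. Of 918 values for other named genes, 876 kept both and 42 lost the threshold. The values of the 9 genes cover all 5 comparisons. Those of the other genes come mostly from comparisons in which the gene was picked because it was called. That choice left little room for gained calls or changes of sign, so the 2 sets of counts are not alike. All values of AKR1B10, AKR1C1 and AKR1C2 kept both. No value that changed sign had a call, other than NQO1 with GFI1 in attached cells. With library size alone the log2 fold change with GFI1 in attached cells became 0.0118 for NQO1, 0.0714 for GCLM and 0.0821 for TXNRD1, that of GCLM with suspension in control cells became 0.00411 (0.00308 with upper quartile scaling) and the SRXN1 interaction became -0.00509. Without single libraries, 5 uncalled values changed sign. The GCLM suspension effect in control cells ran from -0.0415 to 0.0234 (above 0 without replicate 1 of either control group) and that of SRXN1 from -0.0176 (without floating control replicate 3) to 0.127. The GFI1 effect on GCLC in floating cells ran from -0.0244 to 0.0609 (below 0 without floating control replicate 1 or 2 or floating GFI1 replicate 2), the SRXN1 interaction from -0.0791 (without floating GFI1 replicate 1) to 0.111, and the AKR1C3 suspension effect in GFI1-expressing cells from -0.106 (without floating GFI1 replicate 3) to 0.0745. The cause was not tested.

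When a 2-fold difference was required too, the counts of the 9 genes called became 2 and 1 for GFI1 in attached and floating cells and 0 for the other 3 comparisons, and those of all genes became 3247, 3078, 909, 500 and 241, by construction of the rule. With single libraries left out, 5 to 6 of the 9 were called for GFI1 in attached cells and in both suspension comparisons and the interaction, and 8 in floating cells, and all genes called ran over 10440 to 10616, 10085 to 10605, 6343 to 6434, 4664 to 5624 and 1481 to 2090. The summed level with library size alone was 12142 CPM in attached control, 12019 in attached GFI1, 14670 in floating control and 11996 in floating GFI1 libraries. The attached control and attached GFI1 libraries overlapped under this scaling. Without the AKR1C genes, and with TMM scaling, the sum was 6913, 4110, 8327 and 3596 CPM.

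Samples with the same replicate number did not deviate together (18 correlations from -0.0306 to 0.0311, with 0 above 0.1). These correlations cannot show whether such samples shared a culture or a preparation. With a replicate block, 6, 8, 6, 5 and 5 of the 9 genes were called in the 5 comparisons, and no call of the 9 changed.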
